A study of Mus musculus with 16 samples.

Results

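Apoe and 9 other genes of cholesterol and lipid export from brain cells were followed in the hippocampus of mice that model Down syndrome, amyloid pathology or both. The 10 genes were taken by name from the table of gene counts, Apoe, Clu, Lcat, Apod, Apoc1, Abca1, Abcg1, Lrp1, Nr1h2 and Nr1h3, out of 55385 genes in all. All 10 were found and all 10 passed the filter on low counts, among 17132 genes tested. Polyadenylated RNA was sequenced from 16 libraries of 9-month-old mice, 4 per genotype, with 2 females and 2 males in each group. Wild-type (WT) mice were C57BL/6J. In Dp16 mice a stretch of chromosome 16, matching most of human chromosome 21, is duplicated on 1 homolog, which gives its genes 3 copies in every cell. 5xFAD mice carry human transgenes bearing mutations of familial Alzheimer's disease, and the Thy1 promoter that drives them is active mainly in neurons. 5xFAD-Dp16 mice carry both, and no group received a treatment. The strain background of the 3 mutant groups is not given in the sources used here. Libraries are named by group and by the number in their labels. The design text counts mice, and no label names a litter or batch, so the p-values measure the spread between these animals.

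Neurons of the adult brain take up much of their cholesterol in particles that glia secrete. Apolipoprotein E, made by astrocytes and by microglia that surround plaques, is the main protein of these particles, and the human gene is the strongest common genetic risk factor for late-onset Alzheimer's disease. The transporters Abca1 and Abcg1 load lipid onto the particles, Lcat esterifies the cholesterol in them, and Lrp1 is a receptor that takes them up. The liver X receptors, Nr1h3 (LXRα) and Nr1h2 (LXRβ), sense oxysterols and are known to switch on Apoe, Abca1 and Abcg1. Clusterin (Clu) and apolipoprotein D (Apod) are further secreted lipid-binding proteins, and Apoc1 is a small apolipoprotein encoded beside Apoe.

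None of the 10 genes lies in the triplicated segment (chromosome 16, 75540514 to 97962622 in GRCm38), so each has its normal copy number in Dp16 mice. Apod is on chromosome 16 (31296192 to 31314808), 44.2 megabases before the segment. ABCG1 lies on human chromosome 21, but mouse Abcg1 is on chromosome 17 (31057675 to 31117988) and is not duplicated here. Apoe (chromosome 7, 19696109 to 19699188) and Apoc1 (19689481 to 19692660) lie 3448 bases apart on the same strand. Of the others, Clu is on chromosome 14 (65968483 to 65981547), Lcat on 8 (105939551 to 105943382), Abca1 on 4 (53030787 to 53159895), Lrp1 on 10 (127538161 to 127621148), Nr1h2 on 7 (44549616 to 44553951) and Nr1h3 on 2 (91184061 to 91202834). Nr1h3 shares 34 exonic bases (1.35% of its exons) with the transcript Gm13783 on the same strand. No other member shares exonic bases with another gene.

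The 250 bases upstream of the start are shown for Apoe, Lcat and Abca1, the 3 genes with a change that was called in every alternative tried in at least 1 comparison below. They are read 5′ to 3′ on the minus strand, from the RefSeq promoter table (GRCm38.p6), which held 7 of the 10 genes and has no entry for Clu, Apoc1 and Abcg1. Capitals mark matches, on either strand, to 3 words of 6 bases. These are the GC box with the letters GGGCGG, the E-box with the letters CACGTG, and the TATA box with the letters TATAAA.

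Apoe, chr7:19699189-19699438: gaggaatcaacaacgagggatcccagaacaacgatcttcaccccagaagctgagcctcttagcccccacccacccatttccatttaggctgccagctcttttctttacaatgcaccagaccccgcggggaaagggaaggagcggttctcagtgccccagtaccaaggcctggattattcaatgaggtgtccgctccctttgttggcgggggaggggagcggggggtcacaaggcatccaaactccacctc

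Lcat, chr8:105943403-105943652: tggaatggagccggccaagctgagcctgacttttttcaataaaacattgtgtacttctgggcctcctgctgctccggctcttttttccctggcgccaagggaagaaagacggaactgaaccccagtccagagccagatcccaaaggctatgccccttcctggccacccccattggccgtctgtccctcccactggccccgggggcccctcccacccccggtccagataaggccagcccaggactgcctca

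Abca1, chr4:53159896-53160145: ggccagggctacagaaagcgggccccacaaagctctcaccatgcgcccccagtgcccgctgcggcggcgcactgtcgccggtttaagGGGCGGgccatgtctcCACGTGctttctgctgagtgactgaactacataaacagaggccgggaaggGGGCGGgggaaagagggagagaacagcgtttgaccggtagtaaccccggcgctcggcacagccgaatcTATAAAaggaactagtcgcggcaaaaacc

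The Abca1 window held GGGCGG at 163 and 97 bases, CACGTG at 147 bases and TATAAA at 29 bases before the start, counted from the first base of the match. The Apoe and Lcat windows held none of these words. Over all 32851 windows of the same length, 32.7% held GGGCGG, 6.02% CACGTG and 12.4% TATAAA. The nuclear receptor half-site AGGTCA, also read on both strands, was in 14% of windows and in none of those of the 7 members. Of the other 4 members in the table, Lrp1 had 1 GGGCGG, at 99 bases, and Apod, Nr1h2 and Nr1h3 had no match to any of the words. A match describes letters only, and the words did not overlap in these windows. Only exact words were read, so the lack of a match does not show that a window has no binding site.

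The libraries held 16922937 to 25308693 gene counts, and mitochondrial transcripts took 4.96% to 6.87% of them. All 9 fixed markers of the hippocampus were detected in every library, for example Prox1 at 65.7 to 141 counts scaled to a common library size (CPM, TMM-scaled as for all levels below). Tissue from beside the hippocampus differed between libraries. The mean log2 level of 10 thalamus markers, relative to WT, was 1.26 to 1.96 in 6 libraries (5xFAD 6, 13 and 15, and 1 of each other group: WT 4, Dp16 14 and 5xFAD-Dp16 1) and −0.94 to −0.36 in the other 10. With those 6 left out, 5xFAD library 10 stands alone for its group and is assumed to vary like the other groups. Summed choroid plexus markers ran from 466 to 8237 CPM in WT, from 53.9 to 970 in Dp16, from 66.1 to 6198 in the 5xFAD group and from 75.5 to 3013 in the double mutants. Results that moved with these values are given with them.

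Per unit of length, Apoe was the most abundant of the 10 genes and the 13th of all genes tested in WT. The deposited RPKM values (read counts divided by gene length and by library total) in WT were 1382 ± 72.8 (SD, n = 4) for Apoe and 682 ± 37.9 for Clu, which ranked 33rd. Apod followed at 108 ± 26.7, Lrp1 at 34.3 ± 0.844, Lcat at 22.6 ± 2.15, Nr1h2 at 22.0 ± 2.69, Abcg1 at 15.2 ± 0.783 and Abca1 at 4.80 ± 0.362. Apoc1 (1.81 ± 0.796) and Nr1h3 (1.59 ± 0.293) were lowest. By these values Lcat and Nr1h2 did not differ beyond their spread, nor did Apoc1 and Nr1h3. The gene lengths behind them were not compared with an annotation, so the order of genes at nearby levels rests on the authors' lengths. The transcript of the particle's main protein thus stood far above those of the transporters and of the receptors that sense lipid.

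**Figure D1:**
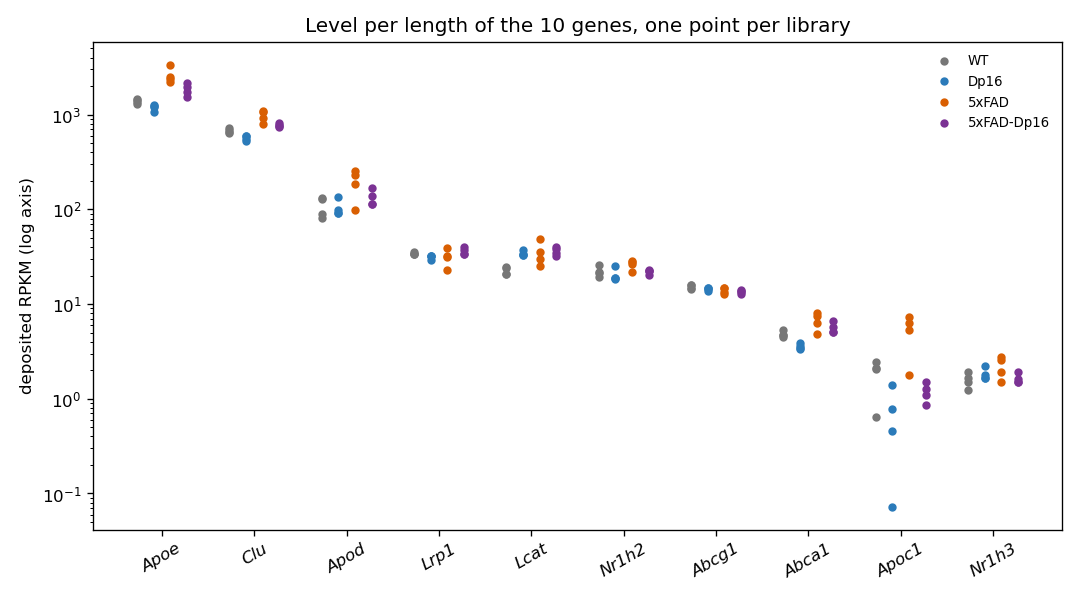
Deposited RPKM (log axis) of the 10 genes in each library, coloured by group, genes ordered by their WT mean. Apoe lies above 1000 in every library, Nr1h3 stays between 1.24 and 2.73, and Apoc1 spreads from 0.0713 to 7.38.

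Apoe rose with the amyloid transgenes on both chromosome backgrounds. In TMM-scaled CPM it was 2472, 2572, 2544 and 2643 in WT libraries 2, 4, 7 and 16, and 5813, 4207, 4471 and 3878 in 5xFAD libraries 6, 10, 13 and 15. The groups did not overlap, and library 6 stood above the other 5xFAD libraries. Apoe rose 1.78-fold in 5xFAD over WT (log2 0.84 ± 0.12 SE, edgeR adjusted p = 0.000301). It took 0.237% to 0.267% of all counts in WT and 0.411% to 0.622% in 5xFAD.

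In Dp16 libraries 3, 5, 12 and 14 Apoe was at 2317, 2381, 2031 and 2301 CPM, and in 5xFAD-Dp16 libraries 1, 8, 9 and 11 at 3932, 2909, 3256 and 3583. These groups did not overlap either, and the rise was 1.51-fold (log2 0.59 ± 0.12, edgeR adjusted p = 0.00792). The call held in all 8 fits that each left out 1 library of the pair, as it did for 5xFAD over WT. Without the 6 high-thalamus libraries the log2 changes were 0.73 (edgeR adjusted p = 0.00579) for 5xFAD over WT and 0.55 (edgeR adjusted p = 0.00212) for 5xFAD-Dp16 over Dp16.

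Values of Apoe were lower wherever the duplication was present, without passing the test. All 4 Dp16 libraries lay below all 4 WT libraries (log2 −0.18 ± 0.12, edgeR adjusted p = 0.973). The 5xFAD-Dp16 libraries overlapped the 5xFAD libraries only through library 1 of the former (log2 −0.42 ± 0.12, 95% interval −0.68 to −0.17, edgeR adjusted p = 0.115). This last difference passed in 3 of 17 alternatives, with log2 values from −0.50 to −0.30 over all 17. These were DESeq2 (adjusted p = 0.0271), no low-count filter (edgeR adjusted p = 0.0115) and leaving out 5xFAD library 10 (edgeR adjusted p = 0.0331). The same 3 called 530, 1656 and 2045 of all genes, against 52 in the main fit. Without library 10, all 5xFAD libraries left had a high thalamus score. The 5xFAD-Dp16 libraries all lay above WT (log2 0.41 ± 0.12, edgeR adjusted p = 0.0882), and this passed without the high-thalamus libraries (edgeR adjusted p = 0.0389) and in DESeq2 (adjusted p = 0.00998). The double mutant value over WT also passed in a fit of these 2 groups alone, without the low-count filter and with the thalamus score as a term. That made 5 of 17 alternatives. The interaction, which is the amyloid change on Dp16 minus that on WT, was −0.24 ± 0.17 on the log2 scale (95% interval −0.60 to 0.11, edgeR adjusted p = 0.748).

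Markers of microglia and of reactive astrocytes were higher in both amyloid groups, as Apoe was. Each of 8 reactive astrocyte markers, 10 homeostatic and 14 plaque-associated microglia markers was called higher in 5xFAD than in WT, where 5.31% of all genes were. Their summed CPM ran, for reactive astrocytes, from 566 to 622 in WT and 546 to 909 in Dp16, and from 1609 to 3099 in 5xFAD and 1954 to 2147 in 5xFAD-Dp16. Those of plaque-associated microglia were 994 to 1183, 1016 to 1126, 2180 to 3629 and 2060 to 2428 in the same order, and those of homeostatic microglia 385 to 470, 375 to 470, 717 to 1307 and 806 to 939. The mean log2 level of reactive astrocyte markers, relative to WT, was 1.70 ± 0.40 (SD) in 5xFAD and 1.79 ± 0.20 in 5xFAD-Dp16. The mean log2 level of plaque-associated microglia markers was 2.95 ± 0.42 in 5xFAD and 2.47 ± 0.20 in 5xFAD-Dp16. In 5xFAD-Dp16 over 5xFAD, 4 of 8 reactive astrocyte values were positive, with a median log2 value of −0.05. For plaque-associated microglia 0 of 14 values were positive, and for homeostatic microglia 2 of 10, with medians of −0.50 and −0.28. No marker of these lists was called there, nor was Apoe (log2 −0.42, edgeR adjusted p = 0.115). Of 11 general astrocyte markers, 3 were called higher in 5xFAD over WT, with a median log2 value of 0.19. Their summed CPM overlapped, at 7042 to 9170 in WT and 6700 to 9120 in 5xFAD. The part of these cell types in the result was not tested. In bulk tissue, more cells of a type and more RNA per cell cannot be told apart.

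**Figure D2:**
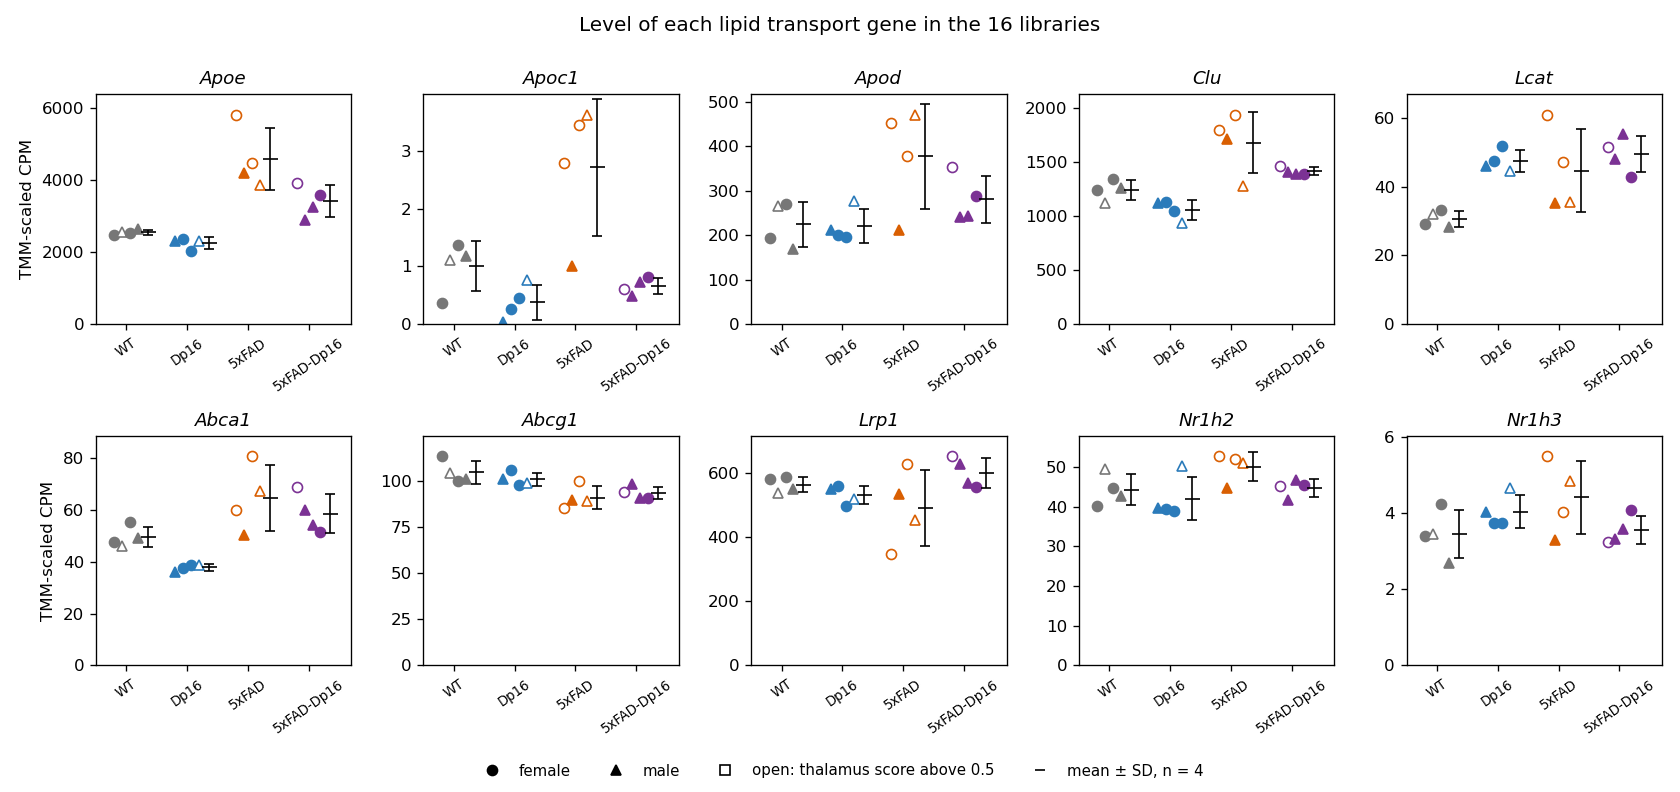
TMM-scaled CPM of each gene in every library (circles female, triangles male, open symbols for a thalamus score above 0.5), with the mean ± SD of the 4 libraries per group. Every 5xFAD and 5xFAD-Dp16 library has more Apoe than every WT or Dp16 library, and Lcat is lowest in the 4 WT libraries.

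Clu, which encodes the chaperone-like apolipoprotein clusterin and is a human Alzheimer risk gene, rose less. Its CPM was 1247, 1124, 1343 and 1264 in WT, and 1126, 1135, 1049 and 936 in Dp16. In 5xFAD it was 1796, 1712, 1937 and 1278, and in 5xFAD-Dp16 it was 1468, 1410, 1392 and 1395 (libraries in the order given for Apoe). Only library 15 of 5xFAD overlapped WT, and 5xFAD-Dp16 was wholly above Dp16. Clu rose 1.35-fold in 5xFAD over WT (log2 0.43 ± 0.11, edgeR adjusted p = 0.023) and 1.34-fold in 5xFAD-Dp16 over Dp16 (log2 0.42 ± 0.11, edgeR adjusted p = 0.043).

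These calls for Clu were near the threshold. The first was lost without WT 2, 4 or 7 or 5xFAD 6 or 13 (edgeR adjusted p = 0.0522 to 0.0905), and without the high-thalamus libraries (edgeR adjusted p = 0.0532). The second held in only 1 of 8 such fits, that without Dp16 library 3, with edgeR adjusted p up to 0.175 in the rest. The size of the change moved less, between 0.37 and 0.53 on the log2 scale over all alternatives for the first comparison and between 0.35 and 0.48 for the second. Clu values in Dp16 were lower than in WT without passing (log2 −0.23 ± 0.11, edgeR adjusted p = 0.871), and those in 5xFAD-Dp16 were lower than in 5xFAD (log2 −0.24 ± 0.11, edgeR adjusted p = 0.236).

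Lcat, the enzyme that esterifies cholesterol on lipoprotein particles, was lowest in WT. Its CPM was 29.0, 31.9, 33.1 and 28.2 in WT, and 45.9, 47.3, 51.8 and 44.4 in Dp16. In 5xFAD it was 60.8, 35.1, 47.2 and 35.4, and in 5xFAD-Dp16 it was 51.4, 47.9, 55.3 and 42.9. No WT library reached any library of the other 3 groups, while those groups overlapped one another. Lcat rose 1.62-fold in 5xFAD-Dp16 over WT (log2 0.70 ± 0.13, edgeR adjusted p = 0.00448), and this call held in all 8 fits without 1 library. It also rose 1.44-fold in 5xFAD over WT (log2 0.53 ± 0.13, edgeR adjusted p = 0.0245).

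The 5xFAD rise of Lcat rested on few libraries. It was lost without WT 2, 7 or 16 or 5xFAD 6 (edgeR adjusted p = 0.0616 to 0.104). Without the high-thalamus libraries the log2 value was 0.22 (edgeR adjusted p = 0.638). In Dp16 over WT the value was 1.55-fold (log2 0.63 ± 0.13, 95% interval 0.35 to 0.91), which missed the threshold over all genes (edgeR adjusted p = 0.0877). That comparison passed in DESeq2 (adjusted p = 0.00403), in a fit of these 2 groups alone (edgeR adjusted p = 0.00391) and without the high-thalamus libraries (log2 0.68, edgeR adjusted p = 0.00538). It also passed without the low-count filter (edgeR adjusted p = 3.65e-06), but in none of the 8 fits without 1 library.

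Lcat values of the double mutants overlapped those of each single mutant. With amyloid on the Dp16 background the log2 change was 0.07 ± 0.13 (95% interval −0.21 to 0.35, edgeR adjusted p = 0.905), against 0.53 on the WT background, and with Dp16 on the amyloid background it was 0.17 ± 0.13 (edgeR adjusted p = 0.497). The interaction was −0.46 ± 0.19 (95% interval −0.86 to −0.06, edgeR unadjusted p = 0.0256, adjusted p = 0.718), so the difference between the backgrounds did not pass over all genes. Without the high-thalamus libraries it was −0.20 (edgeR adjusted p = 0.745).

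Apod, a lipocalin that oligodendrocytes and other glia express, varied widely within groups. Its CPM was 193, 265, 271 and 169 in WT, and 211, 199, 195 and 277 in Dp16. In 5xFAD it was 451, 211, 379 and 470, and in 5xFAD-Dp16 it was 352, 240, 242 and 288. In every group but WT, the high-thalamus libraries had the highest values, and the 1 low-thalamus 5xFAD library, number 10, lay within the WT range. The log2 value for 5xFAD over WT was 0.75 ± 0.23 (edgeR adjusted p = 0.0647). It passed in 4 of 17 alternatives. These were DESeq2 (adjusted p = 0.015), no low-count filter, the thalamus score as a term in the fit, and leaving out 5xFAD library 10 (log2 0.95, edgeR adjusted p = 0.00485). Without the high-thalamus libraries, which leaves only library 10 in 5xFAD, the value was 0.14. Summed markers of mature oligodendrocytes ran from 5434 to 6892 CPM in WT and from 4864 in 5xFAD library 10 to 12532 in 5xFAD library 15. Their part in the result was not tested.

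Apoc1 is known to inhibit uptake and remodelling of lipoproteins and rested on few reads. Its counts were 6, 23, 29 and 28 in WT, and 1, 5, 10 and 18 in Dp16. In 5xFAD they were 69, 25, 71 and 103, and in 5xFAD-Dp16 they were 14, 11, 15 and 18. The 4 double mutant libraries lay below the 4 5xFAD libraries (log2 −2.03 ± 0.53, 95% interval −3.15 to −0.90, edgeR adjusted p = 0.105). The 5xFAD value over WT was 1.40 ± 0.51 (edgeR adjusted p = 0.107), and the Dp16 value −1.41 ± 0.58 (edgeR adjusted p = 0.79). No comparison of Apoc1 passed. Without the high-thalamus libraries the double mutant value was −0.72 (edgeR adjusted p = 0.774) and the 5xFAD value 0.28 (edgeR adjusted p = 0.926). Without 5xFAD library 10 alone they were −2.31 (edgeR adjusted p = 0.0135) and 1.70 (edgeR adjusted p = 0.0216). DESeq2 called the double mutant difference (adjusted p = 0.016). Without the low-count filter edgeR called it too (adjusted p = 3.26e-06), as well as 5xFAD over WT (adjusted p = 0.00153) and Dp16 over WT (adjusted p = 0.0358). That setting also called more of all genes in each of these comparisons.

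Abca1, the transporter that starts particle loading by moving cholesterol and phospholipid to lipid-poor apolipoprotein, was lowest in Dp16 and rose with amyloid on that background. Its CPM was 47.7, 46.2, 55.3 and 49.3 in WT, and 36.2, 37.5, 38.9 and 38.9 in Dp16. In 5xFAD it was 59.9, 50.5, 80.8 and 67.3, and in 5xFAD-Dp16 it was 68.8, 59.9, 54.1 and 51.6. The Dp16 libraries lay close together and below every library of the other groups. Abca1 rose 1.55-fold in 5xFAD-Dp16 over Dp16 (log2 0.63 ± 0.12, edgeR adjusted p = 0.00402), and the call held in all 8 fits without 1 library. Without the high-thalamus libraries the rise was 0.57 (edgeR adjusted p = 0.00195).

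The value of Abca1 for Dp16 over WT was −0.39 ± 0.12 (95% interval −0.64 to −0.14, edgeR adjusted p = 0.55). It passed without the high-thalamus libraries (log2 −0.44, edgeR adjusted p = 0.0392) and without the low-count filter (edgeR adjusted p = 0.0366). Choroid plexus markers were also lower in Dp16 (53.9 to 970 CPM against 466 to 8237 in WT), and their part in the result was not tested. For 5xFAD over WT the value was 0.38 ± 0.12 (edgeR adjusted p = 0.0599). It passed in DESeq2 (adjusted p = 0.0455), without the low-count filter and without 5xFAD library 10 (log2 0.47, edgeR adjusted p = 0.00867). Without the high-thalamus libraries, which leaves only library 10 in 5xFAD, it was −0.01. The interaction was 0.25 ± 0.16 (edgeR adjusted p = 0.736), so the amyloid change was not shown to differ between the backgrounds. 5xFAD-Dp16 and 5xFAD overlapped (log2 −0.14 ± 0.12, 95% interval −0.38 to 0.11). So did 5xFAD-Dp16 and WT (log2 0.24 ± 0.12, 95% interval −0.01 to 0.49, edgeR adjusted p = 0.539), so the double mutants were not shown to exceed WT.

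Abcg1, which passes cholesterol on to particles that already carry lipid, did not share the upward values of Apoe and Abca1. Its CPM was 113, 104, 99.9 and 101 in WT, and 101, 106, 98.1 and 99.0 in Dp16. In 5xFAD it was 85.2, 89.7, 100.1 and 89.4, and in 5xFAD-Dp16 it was 94.1, 98.3, 91.0 and 91.0. The 5xFAD-Dp16 libraries lay below all WT libraries (log2 −0.16 ± 0.07, edgeR adjusted p = 0.404), and 1 of 4 5xFAD libraries overlapped WT (log2 −0.20 ± 0.07, edgeR adjusted p = 0.0824). The 5xFAD value passed in DESeq2 (log2 −0.23, adjusted p = 0.0193) and without 5xFAD library 13 (log2 −0.25, edgeR adjusted p = 0.0353). In the Dp16 comparison the 95% interval was −0.20 to 0.09 on the log2 scale.

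Lrp1, the large endocytic receptor for Apoe particles in neurons and glia, did not pass in any comparison. It ran from 536 to 587 CPM in WT, 498 to 559 in Dp16 and 555 to 651 in 5xFAD-Dp16. The 5xFAD libraries spread from 347 in library 6 to 627 in library 13, and overlapped each of the other groups. The log2 value was −0.20 ± 0.13 in 5xFAD over WT (95% interval −0.48 to 0.08, edgeR adjusted p = 0.375) and 0.29 ± 0.13 in 5xFAD-Dp16 over 5xFAD (95% interval 0.01 to 0.58, edgeR adjusted p = 0.252).

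The liver X receptor genes did not pass either. Nr1h2, the more abundant of the pair, ran from 40.2 to 49.5 CPM in WT and 38.8 to 50.2 in Dp16, and from 44.6 to 52.7 in 5xFAD and 41.6 to 46.7 in 5xFAD-Dp16. Its 5xFAD value was 0.18 ± 0.09 on the log2 scale (edgeR adjusted p = 0.254). In WT, Dp16 and 5xFAD each high-thalamus library lay above each low-thalamus one. Nr1h3 had 55 to 138 counts per library, at 2.69 to 4.24 CPM in WT and 3.28 to 5.49 CPM in 5xFAD. Its 5xFAD value was 0.36 ± 0.18 (95% interval −0.03 to 0.75, edgeR adjusted p = 0.238). Transcript levels do not report how much of these receptors is bound by ligand.

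**Figure D3:**
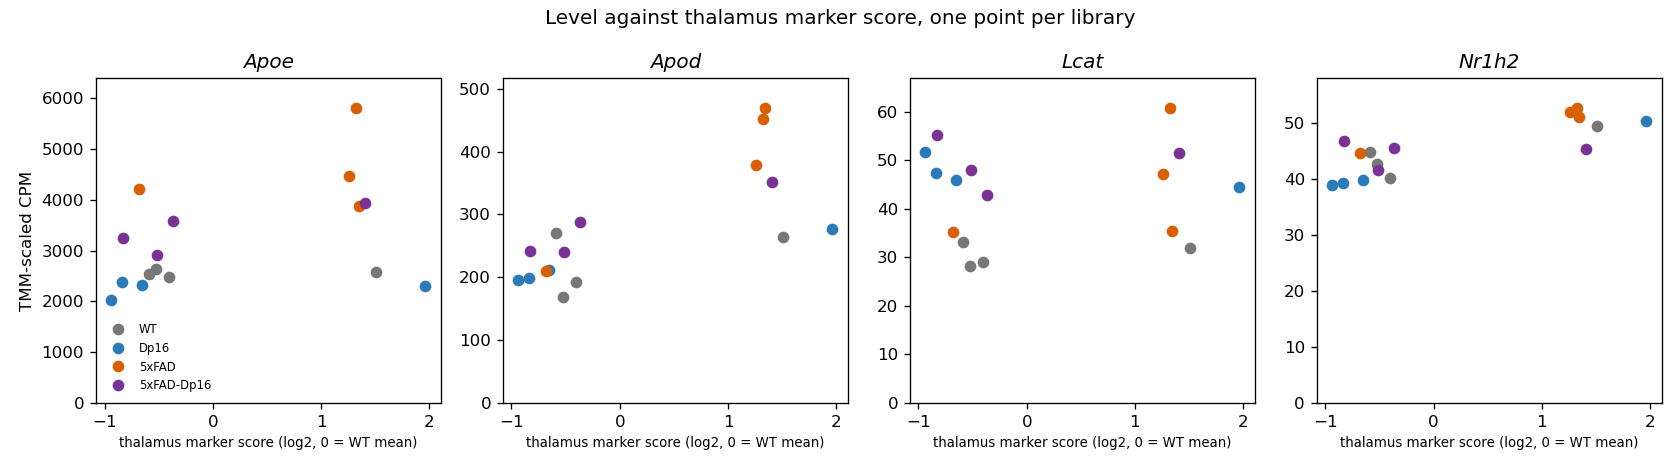
TMM-scaled CPM of Apoe, Apod, Lcat and Nr1h2 against the library's thalamus marker score (mean log2 CPM, WT mean at 0), coloured by group. Apod and Nr1h2 reach their highest levels in libraries with a high score, while Apoe in 5xFAD is above WT at both ends, 4207 CPM in the low-score library and 3878 to 5813 CPM in the others.

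The 10 genes can be set against all genes tested in each comparison. In 5xFAD over WT, 3 of 10 (Apoe, Clu and Lcat) were called higher and none lower, where 5.31% of all genes were called higher and 1.96% lower (7.26% either way). Their median log2 value was 0.40, against 0.03 for all genes. Leaving out 1 library gave between 1 member, without 5xFAD 6, WT 2 or WT 7, and 6 members, without 5xFAD 10. Calls over all genes moved as well, from 1244 to 641, 562 and 712 in the first 3 fits and to 3486 in the last. In 5xFAD-Dp16 over Dp16, 3 of 10 (Apoe, Clu and Abca1) were called higher, where 2.99% of all genes were called higher and 3.02% either way, and the median was 0.25 against −0.01. In 5xFAD-Dp16 over WT, 1 of 10 (Lcat) was called, where 3.1% of all genes were called higher (3.2% either way), with a median of 0.14 against −0.01. The comparison of 5xFAD-Dp16 with WT shares libraries with each of the other comparisons, so its count is not separate from theirs.

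The duplication comparisons called no member. In Dp16 over WT edgeR called 0 of 10, where 0.228% of all genes were called. At an unadjusted p under 0.05 there were 4, against 5.70% of all genes. DESeq2 called 1 (Lcat), where it called 73 of the 17132 genes, and limma on the RPKM values called 0, where it called 28. Groups did not overlap for 3 of 10 (Lcat higher, Apoe and Abca1 lower), against 4.48% of all genes. Of the 10 values, 8 were negative, with a median of −0.08, against 0.0015 for all genes. In 5xFAD-Dp16 over 5xFAD edgeR called 0 of 10, where 0.304% of all genes were called. There were 4 at an unadjusted p under 0.05, against 19.1% of all genes. DESeq2 called 2 lower (Apoe and Apoc1), where it called 530 of the 17132 genes, and limma called 0, where it called 51. The median was −0.20, against −0.03 for all genes.

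Interaction and sex were tested in the same way. For the interaction, edgeR called 0 of 10 members and 0 of all 17132 genes (0%), DESeq2 and limma also called 0, and 2 members (Lcat and Nr1h3) and 1114 genes were at an unadjusted p under 0.05. The Nr1h3 interaction was −0.55 ± 0.26 (edgeR adjusted p = 0.718). Between females and males edgeR called 0 of 10 members, where 0.0642% of all genes were called. Of the 10 values, 9 were higher in females, with a median of 0.11, against 0.0046 for all genes. No member had an unadjusted p under 0.05, and DESeq2 and limma called 0.

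Apoe differed most by sex where amyloid was present. Its mean CPM was 5142 in females and 4042 in males of 5xFAD, and 3757 and 3083 in 5xFAD-Dp16, against 2508 and 2607 in WT and 2206 and 2309 in Dp16, with 2 libraries per mean. Females lay above males in both amyloid groups, without overlap. That rests on 2 libraries per sex in each group, and the share of all genes that separate in this way was not counted. The difference of the amyloid change between the sexes was 0.38 ± 0.14 on the log2 scale (edgeR unadjusted p = 0.0192, adjusted p = 0.936). For that term edgeR called 0 of 10 members and 0% of all genes, DESeq2 and limma also called 0, and Apoe was the 1 member at an unadjusted p under 0.05, against 3.73% of all genes. Thalamus markers were unevenly spread here as well, with a high score in 3 of 4 females and 1 of 4 males that carried amyloid transgenes, and their part in the result was not tested.

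**Figure D4:**
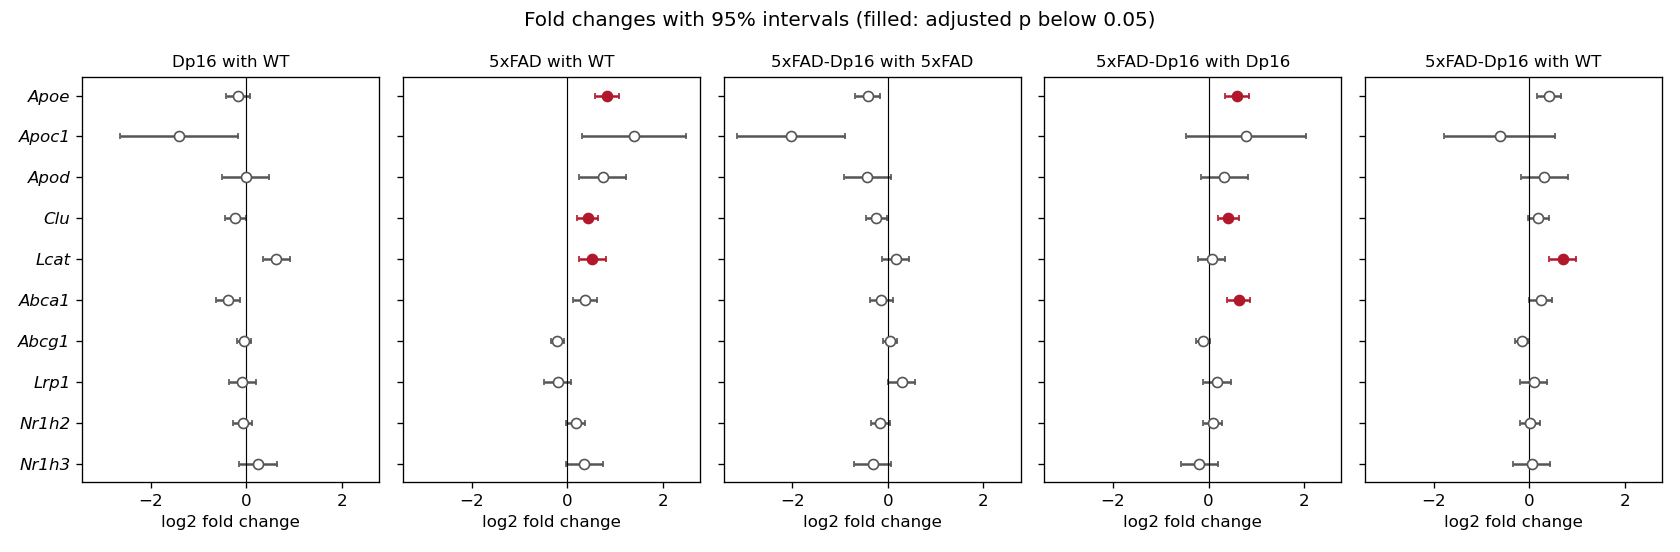
Log2 fold change of each gene in 5 comparisons with its 95% interval from the edgeR fit, filled where the adjusted p was below 0.05. Apoe and Clu are filled in both comparisons that add amyloid alone, Abca1 only over Dp16 and Lcat only over WT, while the Dp16 comparisons have no filled point.

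The wider pathway was covered by 4 lists. The list of further efflux transporters and lipoprotein parts had 12 of 18 genes tested, that of receptors and uptake 13 of 15, that of LXR partners and targets 13 of 13, and that of oxysterol and sterol transport 12 of 12. In 5xFAD over WT, 4 of 12 oxysterol and sterol transport genes were called higher and none lower, where 5.31% of all genes were called higher and 1.96% lower. Their median log2 value was 0.27, against 0.03 for all genes. Npc2, which carries cholesterol out of the lysosome, rose from 65.1 ± 10.6 to 126 ± 20.6 CPM (log2 0.95 ± 0.12, edgeR adjusted p = 9e-05). Ch25h, which makes the LXR ligand 25-hydroxycholesterol, rose from 0.417 ± 0.192 to 3.80 ± 2.51 CPM (log2 3.13 ± 0.55, edgeR adjusted p = 0.00209). Stard4, a cytosolic sterol carrier, rose from 20.4 ± 1.75 to 27.6 ± 2.71 CPM (log2 0.44 ± 0.09, edgeR adjusted p = 0.00855). Tspo, a mitochondrial outer membrane protein widely used as a marker of glial activation, rose from 4.70 ± 2.40 to 9.05 ± 1.24 CPM (log2 0.93 ± 0.26, edgeR adjusted p = 0.0388). Without the high-thalamus libraries, Npc2 and Ch25h passed, and Stard4 (edgeR adjusted p = 0.0512) and Tspo (edgeR adjusted p = 0.708) did not. Tspo was also lost without WT 4 or 16 or 5xFAD 6, 13 or 15 (edgeR adjusted p up to 0.121).

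Among transporters and receptors outside the 10 genes, 2 of 12 and 3 of 13 were called in 5xFAD over WT, where 7.26% of all genes were called. Of the 12 efflux and lipoprotein genes, Abca9 rose (log2 0.87 ± 0.15, edgeR adjusted p = 0.00173) and Abcg4, a sterol transporter related to Abcg1, fell (log2 −0.27 ± 0.08, edgeR adjusted p = 0.0485), with a list median of −0.03. Of the 13 receptor genes, the macrophage scavenger receptor Msr1 rose (log2 2.36 ± 0.52, edgeR adjusted p = 0.0114). The sorting receptor Sorl1 fell (log2 −0.54 ± 0.13, edgeR adjusted p = 0.0215), as did Vldlr, a receptor for Apoe and reelin (log2 −0.30 ± 0.08, edgeR adjusted p = 0.0408), and the list median was −0.28. Without the high-thalamus libraries none of these 5 passed, with Abcg4 at −0.05 and the others between −0.39 and 1.93 on the log2 scale. The 1 gene of the 2 lists called there was Apoc4, which had not passed the filter on low counts over all libraries and rested on the single 5xFAD library left (edgeR adjusted p = 0.0374). Neuronal markers were also lower in 5xFAD. The values of all 8 excitatory neuron markers (2 called lower, median log2 −0.45) and of all 9 hippocampus markers (1 called lower, median −0.45) were below WT. Summed excitatory neuron markers ran from 3802 to 10553 CPM in 5xFAD and from 7290.0 to 10570.2 CPM in WT, and their part in the values of Sorl1, Vldlr and Abcg4 was not tested. Of the 8 fits without 1 library, Abcg4 passed only in that without 5xFAD 10, and Vldlr only in those without 5xFAD 10 or 13. Sorl1 was lost without WT 2 or 7 or 5xFAD 6 or 15, and Msr1 without WT 7.

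None of the 13 LXR partners and targets was called by edgeR in 5xFAD over WT, with a median of 0.16. At an unadjusted p under 0.05 there were 6 of them, against 24.9% of all genes. DESeq2 called 1 higher and 1 lower, and limma 1 higher, where they called 2114 and 1425 of all genes. Lpl, the lipoprotein lipase, passed without the high-thalamus libraries (log2 0.93 ± 0.16, edgeR adjusted p = 0.00488, against 0.67 ± 0.21 and 0.0690 with all libraries), and was singled out after its values were seen, as was Apoc4. In 5xFAD-Dp16 over Dp16, Abca9 (log2 1.03 ± 0.15), Npc2 (0.84 ± 0.12), Stard4 (0.53 ± 0.09) and Ch25h (2.41 ± 0.55) rose, and no other gene of the 4 lists was called, where 2.99% of all genes were called higher. The same 4 genes were called in 5xFAD-Dp16 over WT, a comparison that shares the double mutant libraries. Ch25h was lost over Dp16 without Dp16 5, 12 or 14 or 5xFAD-Dp16 1 or 8, and over WT without WT 2, 4 or 7 or the same double mutants (edgeR adjusted p up to 0.0956). The other 3 genes passed in all 8 fits of each. In Dp16 over WT and in 5xFAD-Dp16 over 5xFAD edgeR called 0 of the 50 listed genes, where 0.228% and 0.304% of all genes were called. There 2 and 12 were at an unadjusted p under 0.05, against 5.70% and 19.1% of all genes. DESeq2 called 0 and 1 of them, where it called 73 and 530 of all genes, and limma called 0.

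**Figure D5:**
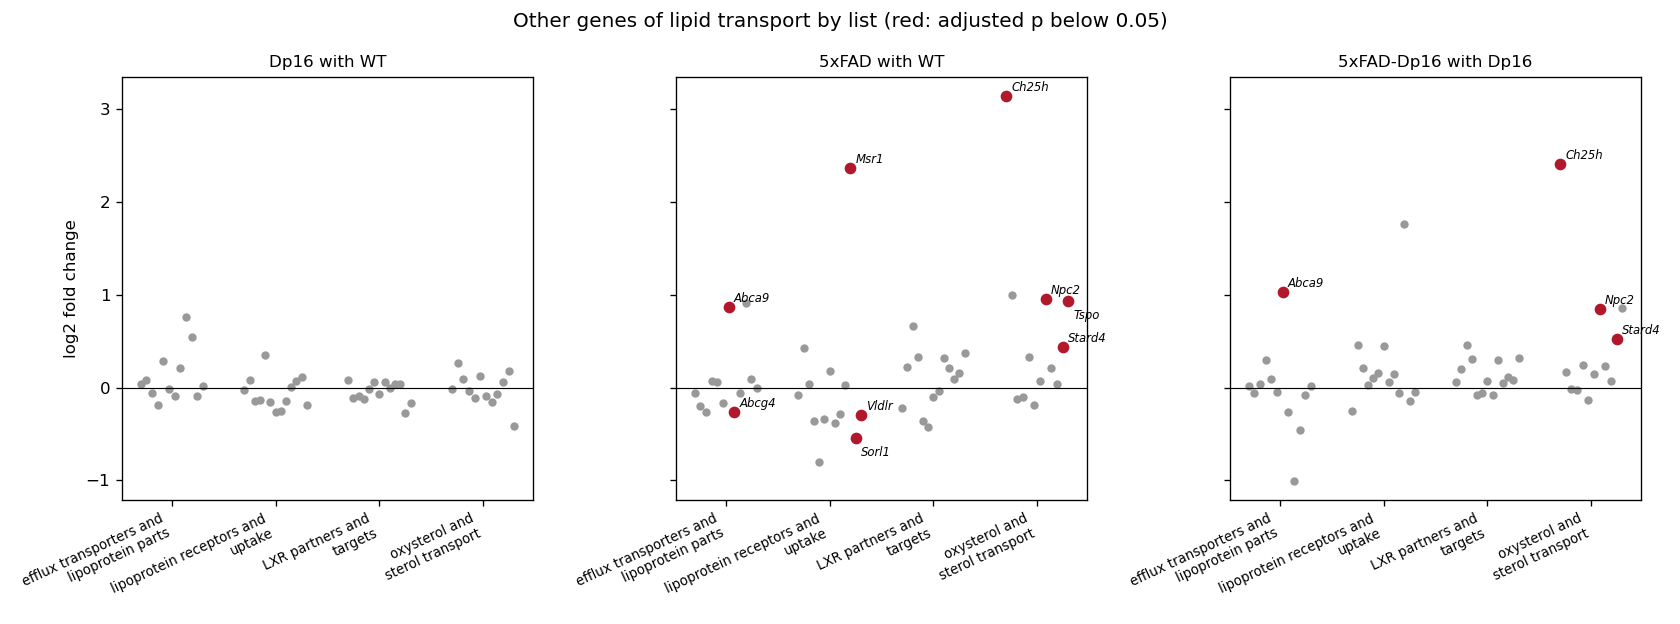
Log2 fold change of every tested gene of the 4 lipid transport lists in 3 comparisons, red where the edgeR adjusted p was below 0.05. No gene is red in Dp16 over WT, 9 are red in 5xFAD over WT and 4 in 5xFAD-Dp16 over Dp16, where Ch25h is the highest at 2.41.

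The genes most like Apoe, Abca1 and Clu in profile were found from the root mean square difference of log2 CPM, centred per gene, over the 16 libraries and 14560 genes. Nearest to Apoe were Ftl1 (0.12), the ferritin light chain, Creg1 (0.139), Lgi4 (0.146) and Mical1 (0.147), where Apoe itself varied by 0.416 around its mean. Ftl1 was at 236 ± 22.9 CPM in WT and 223 ± 10.5 in Dp16, and at 384 ± 58.1 in 5xFAD and 314 ± 24.1 in 5xFAD-Dp16. It was chosen for likeness to Apoe in these same libraries, so a shared order of group means follows from the choice. Nearest to Abca1 (0.324) were Ptbp1 (0.109), Erap1 (0.115), Cd2ap (0.123) and Lamp2 (0.147), which encodes a lysosomal membrane protein. Lamp2 was at 90.8 ± 17.3 CPM in WT and 69.1 ± 5.75 in Dp16, and at 116 ± 24.6 in 5xFAD and 99.7 ± 9.24 in 5xFAD-Dp16. Nearest to Clu (0.275) were Scamp2 (0.132), Glb1 (0.134), Glmp (0.137) and Tmem119 (0.137), the last a marker of microglia.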

How the data were processed

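Strand-specific poly-A libraries were made from TRIzol-extracted RNA, per the labels. Tools listed in the submitters' processing notes, without role or settings, include HISAT2 2.1.0 and HTSeq 0.6.1, with the mouse build GRCm38. The authors deposited raw read counts and RPKM per gene. The RPKM values were checked to equal count over library total and a length per gene that was the same in every library. The lengths themselves were not checked against an annotation.

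All tests used the counts in edgeR 4.0.16 (R 4.3.3): filterByExpr (minimum count 10), TMM factors (0.944 to 1.13), a robust quasi-likelihood fit of group and sex over all 16 libraries, and Benjamini-Hochberg adjustment over 17132 genes, called below 0.05. The script was checked on simulated data. Positions and exon overlaps came from GENCODE M21, which placed 55144 of 55385 genes. It is an earlier release than the one named for the deposited counts and RPKM.

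Alternatives were DESeq2 1.42.0, RLE size factors, no low-count filter, no sex term, 2 groups only, limma 3.58.1 on log2(RPKM + 0.1) and log2(RPKM + 1), leaving out each library, leaving out the 6 libraries with a thalamus score above 0.5, and that score as a term.

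Members, lists, tests and alternatives were chosen with earlier results of these data known. Named were all 10 members, up to 4 called genes per pathway list of smallest p, and the 4 genes nearest in profile to Apoe, Abca1 and Clu.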

Additional observations from a re-analysis of the deposited data

Results flagged for a closer look

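Nr1h2 in Dp16 library 14 was at 50.2 CPM, against 38.8 to 39.7 CPM in the other 3 Dp16 libraries. The gap took 0.92 of the group's range, above Dixon's 95% critical value for 4 samples of 0.829. It was the 1 flag among 40 gene and group combinations, and chance alone gives about 1 in 20. Dp16 14 is also the library with the highest thalamus score, 1.96, and the part of that tissue in the value was not tested.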

How the results depend on the processing

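Called in all 17 alternatives were Apoe in 5xFAD over WT and in 5xFAD-Dp16 over Dp16, Abca1 in 5xFAD-Dp16 over Dp16 and Lcat in 5xFAD-Dp16 over WT. Genes called in 5xFAD over WT were 1244, with 516 from 2 groups only, 2114 by DESeq2, 2692 without the low-count filter, 301 without high-thalamus libraries, and 562 (without WT 2) to 3486 (without 5xFAD 10) without 1 library. Members called there were 3, with 1 from 2 groups only, 6 by DESeq2, 6 without the filter, 1 without high-thalamus libraries, and 1 to 6 without 1 library. Other lipid genes were 9, with 5, 17 and 4 from 2 groups only, without the filter and without high-thalamus libraries, and 6 to 19 without 1 library. In 5xFAD-Dp16 over 5xFAD, 52 genes were called, with 10 from 2 groups only, 530 by DESeq2, 1656 without the filter, 101 without high-thalamus libraries, and 32 (without 5xFAD-Dp16 9) to 2045 (without 5xFAD 10). Members there were 0, with 2 by DESeq2, 3 without the filter and 0 to 3 without 1 library, and other lipid genes 0, with 1, 5 and 0 to 8. In Dp16 over WT, 39 genes became 73 by DESeq2, 360 without the filter and 69 without high-thalamus libraries, and 0 members became 1 from 2 groups only, 1 by DESeq2, 3 without the filter and 2 without high-thalamus libraries. Without the filter, 5xFAD-Dp16 over Dp16 had 890 genes (518 with it) and 8 other lipid genes (4), and 5xFAD-Dp16 over WT 942 (548) and 7 (4). Members in 5xFAD-Dp16 over WT were 1, and 2 from 2 groups only, by DESeq2, without the filter, with the thalamus term and without high-thalamus libraries. Sex had 11 genes, 30 by DESeq2 and 330 without the filter. The interaction had 0, with 290 without the filter and 15 without high-thalamus libraries, and the difference between sexes 0, with 283 and 2.

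Of 1425 alternative values for single genes, 33 changed sign, none of them for a called result. Clu's interaction was 0.0040 with RLE size factors and 0.0040 by DESeq2, and −0.11 to 0.052 without 1 library. Abcg1 in 5xFAD-Dp16 over 5xFAD was −0.044 and −0.041 by limma with pseudocounts of 0.1 and 1. Without 1 library, Apod in Dp16 over WT ran from −0.18 to 0.13 (0.0079 with the thalamus term), Nr1h2 and Nr1h3 in 5xFAD-Dp16 over WT from −0.028 to 0.077 and −0.046 to 0.16, Lcat in 5xFAD-Dp16 over Dp16 from −0.030 to 0.16, and the interactions of Apoc1 and Nr1h2 from −1.02 to 0.11 and −0.15 to 0.022. Without high-thalamus libraries, Abca1 in 5xFAD over WT was −0.012, Apod, Abca1, Nr1h2 and Nr1h3 in 5xFAD-Dp16 over 5xFAD were 0.22, 0.14, 0.0074 and 0.094, and the interactions of Apoc1, Apod and Nr1h2 were 1.33, 0.27 and 0.13. Settings with fewer libraries test with less data, and otherwise the cause was not tested. No paired analysis was possible because the replicate numbers in the labels are unique to each library. At 1 to 103 counts per library, depth limits Apoc1 most.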
